A study of Mus musculus with 19 samples.

Results

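The effect of the MEK inhibitor U0126 after 4 h of fibroblast growth factor (FGF) was measured in NIH3T3 cells as the difference between 2 arrays of cells given FGF for 4 h in the presence of U0126 and 2 arrays of cells given FGF for 4 h alone. These are 4 of the 19 arrays of the study, chosen by their labelled treatment, and each U0126 array was set against the FGF array of the same experiment number. NIH3T3 is an established, immortalised line of mouse fibroblasts. In the U0126 group 20 µM of the inhibitor was added 30 min before basic FGF (50 ng/ml), and the cells were collected after 4 h of FGF. In the FGF group the same dose of FGF was given for 4 h, and the labels name no solvent control. Both groups had first been held for 48 h in 0.1% serum, which makes these cells leave the cell cycle, and 3 arrays of such quiescent cells without FGF give the starting level. The other 12 arrays hold the same cells at 1, 7 and 12 h of FGF, alone or with U0126, and include arrays on which U0126 was added after FGF. No array held U0126 without FGF, so an effect of the inhibitor on the response to FGF and an effect on cells not given FGF cannot be told apart. Whether the experiments were run on independent cultures is not in the labels. The p-values therefore reflect how far these samples scatter, and that scatter may be technical.

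FGF binds receptor tyrosine kinases that switch on RAS, RAF, MEK and ERK in turn. Active ERK enters the nucleus and drives immediate early transcription factors, and it also induces its own inhibitors, such as the DUSP phosphatases and Sprouty and Spred proteins. U0126 blocks MEK and so keeps ERK from being activated. In fibroblasts sustained ERK activity after a mitogen is known for carrying quiescent cells through G1 by raising cyclin D1 and by holding down antiproliferative genes.

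Values are MAS5 signals, a linear brightness that the authors scaled to the same trimmed mean on every array, and signals of different probe sets cannot be ranked against each other. Signal levels of replicate arrays correlated with r = 0.97 in the U0126 group and r = 0.972 in the FGF group across genes, which are not independent replicates. The difference between U0126 and FGF arrays in experiment 1 correlated with that in experiment 2 with r = 0.335 over all genes tested. The ratio of 3' to 5' Gapdh signal was 0.72 to 0.80 on these 4 arrays and 0.698 to 0.80 on all 19. All 12 fibroblast markers lay above 45.2 signal units, the 40th percentile of all values, in both groups. Of 10 markers each, 4 macrophage, 4 epithelial and 3 endothelial markers did so in each group taken alone. The macrophage and epithelial markers above 45.2 were not all the same in both groups. Summed signals were 1354 to 1512 with U0126 against 1674 to 1727 with FGF alone for macrophage markers. For epithelial markers they were 2595 to 2854 against 1608 to 1623. The macrophage genes Ptprc and Aif1, the epithelial genes Krt18 and Cldn4 and the endothelial genes Pecam1 and Cdh5 were below 45.2 in both groups. The epithelial keratin Krt14 had 2119 and 2046 with U0126, against 956 and 1126 with FGF alone and 1871, 2976 and 3130 in quiescent cells (0.995 ± 0.13), and the part of these markers in the results was not tested.

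With U0126 904 of 14996 genes tested were lower (6.03%) and 1040 were higher (6.94%) than with FGF alone, 13% in all. Every called gene moved the same way in both experiments. The calls rest on these same experiments and favour such genes, so this is not separate evidence. The median size of a called change was 0.67 among lower genes and 0.72 among higher genes on the log2 scale, and 207 lower and 279 higher genes changed more than 2-fold. The median over all genes was 0.04. These differences are log2 of the signal plus 13.6, given ± SE, from limma with the experiment as a block, and a gene counts as lower or higher where its Benjamini-Hochberg adjusted p was under 0.05. Without the experiment block 409 genes (2.73%) were lower and 480 (3.2%) higher, all of them among the 1944 called with it. Leaving out 1 of the 4 arrays left between 483 and 582 lower and between 547 and 656 higher genes. The lower and higher counts were 561 and 547 without U0126 replicate 1, 582 and 610 without U0126 replicate 2, 483 and 656 without FGF replicate 1, and 500 and 549 without FGF replicate 2.

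**Figure D1:**
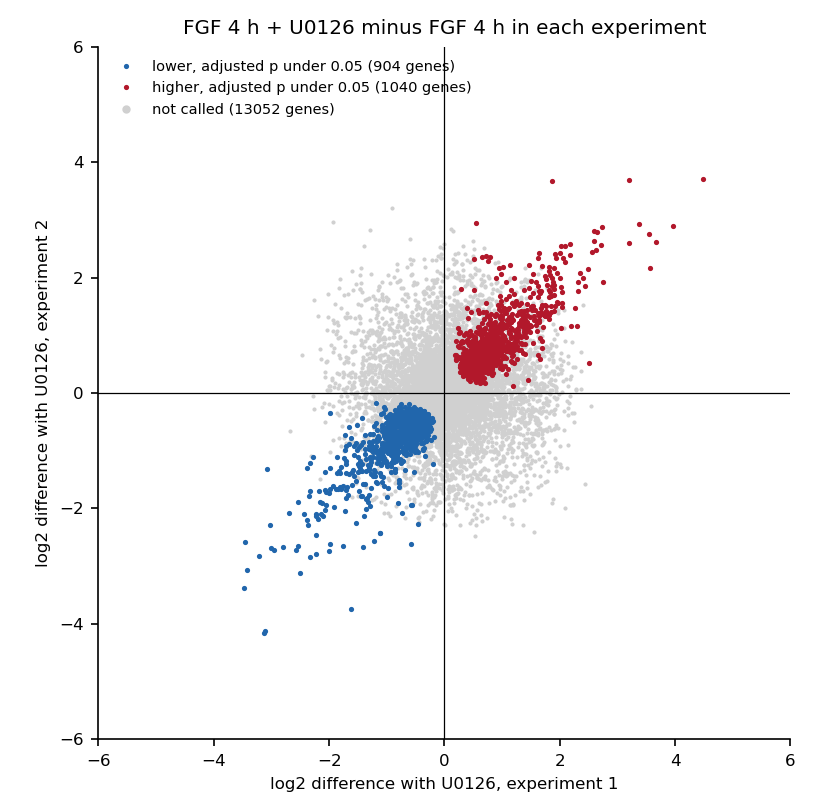
Difference between FGF 4 h + U0126 and FGF 4 h in experiment 1 (horizontal axis) and experiment 2 (vertical axis), in log2 units, with 1 point per gene. The 904 genes called lower lie at the lower left and the 1040 called higher at the upper right, while genes not called scatter around 0 in every direction.

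Feedback regulators of ERK were among the largest decreases. Dusp6, the phosphatase that inactivates ERK in the cytoplasm, gave 1320 and 1292 signal units with U0126, against 9314 and 8316 with FGF alone and 907, 1263 and 1560 in quiescent cells. The log2 difference was -2.74 ± 0.14 (adjusted p = 5e-10). The U0126 arrays were far below the FGF arrays and lay within the quiescent range. The signals of Errfi1, a feedback inhibitor of the EGF receptor, were 1166 and 1666 with U0126, 5347 and 7594 with FGF alone and 734, 1072 and 1317 in quiescent cells. It was lower in both experiments, with a log2 difference of -2.18 ± 0.13 (adjusted p = 4e-09). Dusp4, a nuclear ERK phosphatase, had signals of 229 and 395 with U0126, against 946 and 1275 with FGF alone and 85.5, 63 and 98.4 in quiescent cells. This made a log2 difference of -1.82 ± 0.24, with an adjusted p of 3.3e-05. Dusp4 stood between the other groups, above all quiescent arrays and below both FGF arrays. Of 21 ERK feedback regulators tested, 9 were lower and 4 higher, against 6.03% and 6.94% of all genes, with a list median of -0.45. Without the experiment block the list held 5 lower and 3 higher genes. Spred1 and Spred2, which block RAF activation by RAS, were lower by their brightest probe sets (-1.62 ± 0.13 and -1.02 ± 0.16). In a fit of all probe sets 6 of 7 for Spred1 and 2 of 5 for Spred2 were called lower and none higher. The probe set of highest variance turned the direction (0.68 for Spred1 and 0.41 for Spred2) and gave no call for either. The members that rose were Dusp8 (2.12 ± 0.39), Dusp16 (1.15 ± 0.15) and Dusp10 (0.52 ± 0.15), phosphatases that act mainly on JNK and p38, and the related Dusp14 (0.99 ± 0.14). Dusp10 kept its call in 10 of 17 alternatives. It lost the call without the block, without a variance trend, with its probe set of highest variance and when any 1 of the 4 arrays was left out. Dusp16 lost its call with its probe set of highest variance. Spry2 had 1785 and 1836 with U0126, against 1653 and 1800 with FGF alone and 1207, 1298 and 2097 in quiescent cells, with a difference of 0.07 ± 0.18 that did not pass (adjusted p = 0.87).

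Zinc-finger factors of the EGR family fell with the ERK targets. Egr1, a factor that ERK induces through ELK1 and serum response factor, gave 344 and 254 signal units with U0126, against 3059 and 4648 with FGF alone and 2889, 6135 and 8039 in quiescent cells. Egr1 differed by -3.61 ± 0.21 in log2 units (adjusted p = 3.4e-09). The U0126 arrays were below all quiescent arrays as well as below the FGF arrays. The signals of Egr3, a related factor, were 218 and 210 with U0126, 1844 and 1423 with FGF alone and 701, 640 and 650 in quiescent cells. On the log2 scale the groups differed by -2.84 ± 0.17 (adjusted p = 3.7e-09). Egr2 differed by -2.20 ± 0.31, and its U0126 signals of 162 and 138 were below 577 and 939 with FGF alone. Among 11 ETS factors 4 were lower and 1 higher, against 6.03% and 6.94% of all genes, and 2 and 1 without the block. Etv5, an ETS factor of the PEA3 group induced by FGF signalling in many tissues, had signals of 246 and 299 with U0126, against 2086 and 1521 with FGF alone and 509, 414 and 545 in quiescent cells. U0126 and FGF arrays differed by -2.66 ± 0.19 in log2 units (adjusted p = 4.9e-08). Elk3 was lower by less (-0.75 ± 0.12), and Ets2 was the ETS factor that rose, with 2595 and 2988 with U0126, against 706 and 736 with FGF alone and 1360, 796 and 1056 in quiescent cells.

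The letters GCGGGGG, a core of the EGR recognition site, occurred in 25.3% of 734 promoters of lowered genes, in 17.9% of 857 promoters of raised genes and in 16.5% of 12040 promoters of all genes tested, counting both strands. A promoter here is the 300-base stretch from 250 bases before to 50 bases after the start in RefSeq, on the strand of the gene. Of the 40 genes with the largest changes 29 had such a sequence, 10 of them lowered and 19 raised. GCGGGGG occurred in 3 of the 10 (Sema7a, Etv5 and Eva1a) and in 2 of the 19 (Npas4 and Mmp11). The promoters of Sema7a, a membrane-bound semaphorin, and of Etv5 are shown because they held these letters and their genes, among the 20 largest decreases, fell more than Eva1a. They lie at chr9:57939862-57940161 and chr16:22439521-22439820 (GRCm38.p6), on the plus and minus strand, and capitals mark GCGGGGG, first base at -82 in Sema7a and -88 in Etv5, and in Etv5 also GTAAACA, a FOXO site, at -183. Other motifs were searched too, with shares given here for lowered, raised and all genes tested. AP-1 letters (TGANTCA) had 4.77%, 5.48% and 5.76%, and ETS letters (CCGGAAG) 17.8%, 16.2% and 15.6%. FOXO letters (GTAAACA) had 3.0%, 2.1% and 2.69%, and serum response elements 2.18%, 1.05% and 1.32%. Ddit3, Il6 and BC065403, among the 20 largest increases, held AP-1 or ETS letters, and their promoters are not shown. A match is a run of letters in this window, and base composition, which differs between promoters, was not tested.
Sema7a: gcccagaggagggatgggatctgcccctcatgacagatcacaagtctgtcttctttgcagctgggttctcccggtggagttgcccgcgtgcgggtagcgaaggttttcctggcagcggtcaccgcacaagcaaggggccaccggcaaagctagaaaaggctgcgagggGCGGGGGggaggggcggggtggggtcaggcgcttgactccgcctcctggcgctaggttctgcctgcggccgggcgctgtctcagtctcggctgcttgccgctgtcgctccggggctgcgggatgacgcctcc
Etv5: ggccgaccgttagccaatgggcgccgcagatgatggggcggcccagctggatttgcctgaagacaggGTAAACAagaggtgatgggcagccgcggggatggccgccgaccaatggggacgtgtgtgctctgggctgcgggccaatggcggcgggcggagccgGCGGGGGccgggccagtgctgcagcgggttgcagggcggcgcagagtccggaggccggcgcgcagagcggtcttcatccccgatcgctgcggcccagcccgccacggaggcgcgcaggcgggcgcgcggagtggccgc

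Sema7a gave 106 and 66.3 signal units with U0126, against 660 and 684 with FGF alone and 34.1, 60.5 and 125 in quiescent cells. For Sema7a the log2 difference was -2.81 ± 0.39 (adjusted p = 6.9e-05). The U0126 arrays overlapped the quiescent arrays and both FGF arrays were higher. Signals under 45.2 were not shown to be above background, which touches 1 quiescent array here.

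AP-1 subunits moved both ways, with 3 of 10 lower and 3 higher, against 6.03% and 6.94% of all genes. Without the block 2 were lower and 3 higher. The signals of Fosl1, the FRA-1 subunit stabilised and induced by ERK, were 1619 and 1706 with U0126, 4251 and 3358 with FGF alone and 276, 392 and 311 in quiescent cells. The estimate for Fosl1 was -1.18 ± 0.19 in log2 units (adjusted p = 0.00031). With U0126 it was still above every quiescent array. Junb was lower (-0.99 ± 0.18). Jund, the subunit that restrains fibroblast growth, had signals of 9395 and 5968 with U0126, against 2516 and 1830 with FGF alone and 11190, 8261 and 5348 in quiescent cells. The log2 difference was 1.80 ± 0.19 (adjusted p = 2.5e-06). The U0126 arrays of Jund lay within the quiescent range and both FGF arrays lay below it. Fos, the subunit known for a brief early peak, had 95.3 and 96.2 with U0126, against 144 and 170 with FGF alone and 204, 565 and 1298 in quiescent cells, a difference of -0.64 ± 0.36 that did not pass (adjusted p = 0.3). Myc, which promotes growth and cell cycle entry, had 4658 and 3859 with U0126, against 4670 and 5446 with FGF alone and 1764, 2705 and 2819 in quiescent cells and did not pass either (-0.25 ± 0.13, adjusted p = 0.24).

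A chromatin factor and a growth factor overlapped their quiescent signals with U0126. Hmga2, an architectural chromatin protein of embryonic and transformed cells, gave 1019 and 590 signal units with U0126, against 9064 and 10746 with FGF alone and 587, 1248 and 959 in quiescent cells. It was lower in both experiments, with a log2 difference of -3.65 ± 0.25 (adjusted p = 1.8e-08). The signals of Ereg, a ligand of the EGF receptor, were 583 and 703 with U0126, 6595 and 7495 with FGF alone and 711, 491 and 646 in quiescent cells. This made a log2 difference of -3.43 ± 0.15, with an adjusted p of 1.5e-10. In both genes the U0126 and quiescent arrays overlapped, and the FGF arrays were several times higher. Of 10 EGF family ligands and receptors 3 were lower and none higher, Hbegf among them (-1.36 ± 0.18). Epha2, an ephrin receptor and known ERK target, had signals of 436 and 586 with U0126, against 1251 and 1398 with FGF alone and 314, 364 and 546 in quiescent cells. Epha2 differed by -1.36 ± 0.17 in log2 units (adjusted p = 2e-05). Of 19 growth factor receptors 7 were lower and 1 higher, against 6.03% and 6.94% of all genes, and without the block 4 and 1, against 2.73% and 3.2%. Pdgfra, the PDGF receptor of fibroblasts, fell to 2807 and 2931 with U0126, against 6980 and 7331 with FGF alone, both below the quiescent signals of 11720, 11101 and 9571 (-1.31 ± 0.14).

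**Figure D2:**
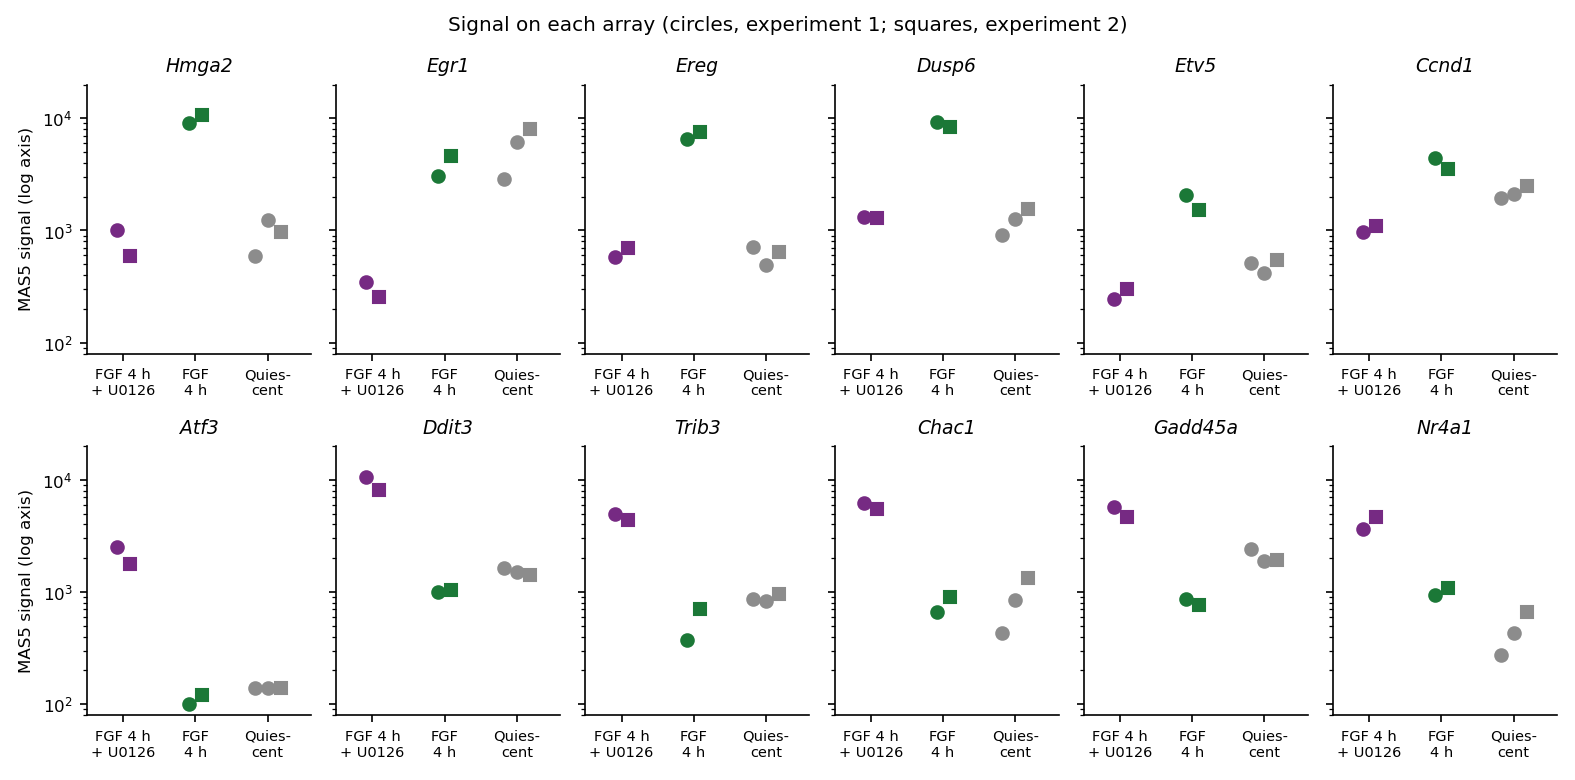
MAS5 signal (log axis) on each array for 6 lowered genes (top row) and 6 raised genes (bottom row), in FGF 4 h + U0126, FGF 4 h and quiescent cells. Circles are arrays of experiment 1 and squares of experiment 2. U0126 and FGF arrays do not overlap in any of the 12 genes, and Atf3, Ddit3, Trib3 and Chac1 with U0126 lie above all quiescent arrays.

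G1 regulators changed in few members. Ccnd1, cyclin D1, which activates CDK4 and CDK6, gave 965 and 1088 signal units with U0126, against 4382 and 3544 with FGF alone and 1940, 2111 and 2502 in quiescent cells. On the log2 scale the groups differed by -1.93 ± 0.14 (adjusted p = 4.6e-08). Its U0126 arrays were below all quiescent arrays. The signals of Cdk6 were 3866 and 6562 with U0126, 9463 and 10745 with FGF alone and 5814, 6500 and 8153 in quiescent cells. U0126 and FGF arrays differed by -0.999 ± 0.13 in log2 units (adjusted p = 2.6e-05). Cdkn1a, the CDK inhibitor p21, had signals of 6864 and 8986 with U0126, against 2866 and 4215 with FGF alone and 4921, 5614 and 8343 in quiescent cells. For Cdkn1a the log2 difference was 1.17 ± 0.12 (adjusted p = 1.5e-06). Its U0126 arrays overlapped the quiescent arrays and its FGF arrays lay below them. These 3, 2 lower and 1 higher, were the calls among 14 G1 cyclins and CDKs, against 6.03% lower and 6.94% higher of all genes. Ccne1, cyclin E1, differed by -0.59 ± 0.27 (adjusted p = 0.18) and Cdkn1b, the inhibitor p27, by 0.56 ± 0.21 (adjusted p = 0.088), and neither passed.

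Chemokines and cytokines of fibroblasts fell in 6 of 16 genes and rose in 1, against 6.03% and 6.94% of all genes. Ccl2, which attracts monocytes, gave 293 and 647 signal units with U0126, against 3374 and 3922 with FGF alone and 399, 671 and 646 in quiescent cells. The estimate for Ccl2 was -3.02 ± 0.20 in log2 units (adjusted p = 1.5e-08). Both FGF arrays were above the overlapping U0126 and quiescent arrays. Ccl7, a related monocyte chemokine, differed by -1.88 ± 0.19, Tslp, an epithelial and fibroblast cytokine, by -3.02 ± 0.29, and Csf1, the macrophage growth factor, by -0.88 ± 0.12. The U0126 signals of Tslp, 35.1 and 52.3, lay on both sides of 45.2, so its size depends on the added 13.6. The member that rose was Il6, the inflammatory cytokine, at 141 and 246 with U0126 against 29 and 6.7 with FGF alone (2.77 ± 0.51), and the FGF signals were below 45.2.

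Matrix and adhesion genes moved in single members. The signals of Plaur, the urokinase receptor, were 623 and 699 with U0126, 1793 and 1823 with FGF alone and 262, 308 and 289 in quiescent cells. The log2 difference was -1.44 ± 0.13 (adjusted p = 3.6e-07). Timp1, an inhibitor of matrix metalloproteases, had signals of 4904 and 4493 with U0126, against 11010 and 13340 with FGF alone and 4548, 5993 and 5757 in quiescent cells. It was lower in both experiments, with a log2 difference of -1.37 ± 0.12 (adjusted p = 3.6e-07). Cd44, the hyaluronan receptor, gave 5581 and 5879 signal units with U0126, against 9260 and 10043 with FGF alone and 2594, 2990 and 3160 in quiescent cells. This made a log2 difference of -0.75 ± 0.10, with an adjusted p of 3.4e-05. Plaur and Cd44 with U0126 were above all quiescent arrays and below both FGF arrays. Of the metalloproteases, Mmp11 (2.31 ± 0.23), Mmp14 (1.24 ± 0.12), Adamts1 (1.59 ± 0.14) and Adamts5 (1.28 ± 0.12) were higher with U0126. Mmp2, Mmp3, Mmp9, Mmp10, Mmp19 and Adamts4 did not pass. Of 15 proteases and urokinase genes 3 were lower and 4 higher, and of 28 matrix genes 6 were lower and 1 higher, against 6.03% lower and 6.94% higher of all genes. Without the block 2 matrix genes were lower and none higher.

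Other transcripts with large decreases had varied roles. Pdzd2, a PDZ-domain scaffold, had 174 and 184 with U0126, against 2001 and 1634 with FGF alone and 1058, 1039 and 1236 in quiescent cells (-3.24 ± 0.17). Prkg2, a cGMP-dependent kinase, had 587 and 615 with U0126, against 4640 and 4150 with FGF alone and 717, 700 and 843 in quiescent cells (-2.84 ± 0.13). Pdzd2 with U0126 was below all quiescent arrays, and Prkg2 was below them too. P2ry2, a receptor for extracellular nucleotides, differed by -2.33 ± 0.28, Frmd4a, a scaffold of cell polarity, by -2.51 ± 0.14, Mgp, the matrix Gla protein that inhibits calcification, by -2.35 ± 0.19, and Tnfaip8, a regulator of cell death, by -2.64 ± 0.13. Synpo, an actin-binding protein, fell to 106 and 196 with U0126, against 764 and 879 with FGF alone, whose arrays overlapped the quiescent ones (-2.39 ± 0.23). Ms4a10 was also among the 20 largest decreases (-2.30 ± 0.62), but it lost its call when any 1 of the 4 arrays was left out.

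Genes of the amino acid and ATF4 stress response were among the largest increases. Under amino acid shortage or endoplasmic reticulum stress, translation of ATF4 rises and ATF4 induces other stress factors, amino acid synthesis enzymes and transporters. Of 20 tested genes of this list 18 were higher with U0126 and none lower, against 6.94% and 6.03% of all genes. Their median difference was 1.20, against 0.04 over all genes, and 16 were higher without the experiment block. With 1 array left out 16 or 17 were higher, and 17 of the 20 had both U0126 arrays above all quiescent arrays, as did 15.9% of all genes tested. The list was assembled with earlier results of these arrays known.

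The signals of Ddit3, the factor CHOP of the stress response, were 10538 and 8114 with U0126, 1000 and 1047 with FGF alone and 1646, 1499 and 1412 in quiescent cells. Ddit3 differed by 3.16 ± 0.17 in log2 units (adjusted p = 7.1e-10). Trib3, a pseudokinase that ATF4 and CHOP induce, had signals of 4948 and 4376 with U0126, against 376 and 698 with FGF alone and 858, 829 and 950 in quiescent cells. On the log2 scale the groups differed by 3.15 ± 0.20 (adjusted p = 9.6e-09). Chac1, an enzyme that degrades glutathione, gave 6222 and 5532 signal units with U0126, against 668 and 901 with FGF alone and 430, 844 and 1324 in quiescent cells. U0126 and FGF arrays differed by 2.90 ± 0.19 in log2 units (adjusted p = 1.7e-08). In all 3 genes the U0126 arrays lay above every other array compared, and the FGF arrays of Ddit3 and Trib3 were below the quiescent ones. The signals of Atf3, a stress-induced factor kept on the AP-1 list, were 2500 and 1767 with U0126, 99.3 and 122 with FGF alone and 139, 140 and 139 in quiescent cells. For Atf3 the log2 difference was 4.10 ± 0.21 (adjusted p = 7.1e-10). It was the largest increase among genes named by size. Atf4 itself had signals of 17556 and 18810 with U0126, against 9155 and 10531 with FGF alone and 7347, 9934 and 9791 in quiescent cells. The estimate for Atf4 was 0.89 ± 0.11 in log2 units (adjusted p = 1.8e-05).

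Enzymes and transporters of the list rose as well. Cth, which makes cysteine from cystathionine, gave 2427 and 3112 signal units with U0126, against 437 and 850 with FGF alone and 438, 343 and 672 in quiescent cells. The log2 difference was 2.15 ± 0.16 (adjusted p = 4.9e-08). The signals of Psph, the last enzyme of serine synthesis, were 4503 and 4636 with U0126, 1432 and 1920 with FGF alone and 1190, 1186 and 1495 in quiescent cells. It was higher in both experiments, with a log2 difference of 1.45 ± 0.16 (adjusted p = 6.4e-06). Asns, asparagine synthetase, had signals of 14556 and 12308 with U0126, against 6405 and 7775 with FGF alone and 4916, 5422 and 6753 in quiescent cells. This made a log2 difference of 0.92 ± 0.13, with an adjusted p of 7.4e-05. The transporter subunits Slc7a11 (1.10 ± 0.22), Slc7a5 (1.36 ± 0.17), Slc3a2 (1.18 ± 0.12) and Slc7a1 (0.79 ± 0.11), which import cystine, large neutral and cationic amino acids, were higher. Slc7a11 with FGF alone already exceeded all quiescent arrays, at 357 and 404 against 110, 118 and 112. Nupr1, a stress-induced chromatin protein, differed by 1.63 ± 0.16, and Ddit4, an inhibitor of mTORC1, by 1.35 ± 0.16. Psat1 of serine synthesis (0.25 ± 0.10, adjusted p = 0.11) and Fgf21 (0.29 ± 0.72, adjusted p = 0.86) did not pass. The mitochondrial folate enzymes Mthfd2 (1.77 ± 0.18) and Shmt2 (0.71 ± 0.14), from the list of polyamine and nucleotide synthesis, were also higher. Among 15 NRF2 targets 3 rose and none fell (2 and none without the block), against 6.94% and 6.03% of all genes. The largest change was in the haem oxygenase Hmox1 (1.43 ± 0.13). Hmox1 had 22120 and 19015 with U0126, against 8233 and 7016 with FGF alone and 9609, 8655 and 6424 in quiescent cells. Asns, Psph, Slc7a5, Slc3a2, Slc7a1, Atf4, Psat1, Fgf21, Dusp10, Dusp14, Dusp16 and Spred2 lay outside the rule for naming genes and were named after their values were seen.

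The composite site of ATF4 with C/EBP factors was searched as TGATGNAA on both strands, a motif added after these values were seen. It occurred in 6 of 18 promoters of the stress list (33.3%), in 4.55% of 857 promoters of raised genes, in 1.5% of 734 promoters of lowered genes and in 2.55% of 12040 promoters of all genes tested. The 6 were Trib3, Chac1, Asns, Slc7a11, Nupr1 and Fgf21, the last of which did not pass at 4 h. The list was drawn from known genes of the ATF4 response, so its share of an ATF4 motif is not separate evidence. The promoters of Atf3, Trib3 and Chac1 are shown because they hold the motif, in capitals, and are the 3 genes with it among the 20 largest increases. They lie at chr1:191183284-191183583, chr2:152344011-152344310 and chr2:119350992-119351291 (GRCm38.p6), on the minus, minus and plus strand. The motif stands on the opposite strand to the gene in each, with its first printed base at -110 in Atf3, 15 bases after the start in Trib3 and at -193 in Chac1.
Atf3: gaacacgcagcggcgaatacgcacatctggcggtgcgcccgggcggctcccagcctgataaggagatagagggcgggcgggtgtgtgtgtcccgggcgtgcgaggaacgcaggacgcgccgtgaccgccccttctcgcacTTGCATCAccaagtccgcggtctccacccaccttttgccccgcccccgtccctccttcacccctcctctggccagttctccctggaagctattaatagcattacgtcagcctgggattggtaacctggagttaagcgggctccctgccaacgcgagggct
Trib3: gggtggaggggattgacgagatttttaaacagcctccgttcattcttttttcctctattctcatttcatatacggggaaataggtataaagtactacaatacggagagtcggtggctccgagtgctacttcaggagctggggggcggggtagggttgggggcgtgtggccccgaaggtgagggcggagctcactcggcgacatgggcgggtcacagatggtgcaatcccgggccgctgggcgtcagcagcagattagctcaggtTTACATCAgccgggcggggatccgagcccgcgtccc
Chac1: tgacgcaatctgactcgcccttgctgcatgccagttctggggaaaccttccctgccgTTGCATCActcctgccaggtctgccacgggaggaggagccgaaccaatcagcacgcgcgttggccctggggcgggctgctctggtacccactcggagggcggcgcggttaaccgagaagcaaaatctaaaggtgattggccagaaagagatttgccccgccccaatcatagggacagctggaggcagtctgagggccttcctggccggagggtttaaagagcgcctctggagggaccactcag

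Of 36 antiproliferative genes 13 were higher and 4 lower with U0126, against 6.94% and 6.03% of all genes. Without the block 9 were higher and 2 lower. Their median difference was 0.15, and Ddit3 and Ddit4 belong to this list too. Gadd45a, a growth arrest and DNA damage gene, gave 5762 and 4630 signal units with U0126, against 867 and 769 with FGF alone and 2419, 1901 and 1941 in quiescent cells. Gadd45a differed by 2.64 ± 0.16 in log2 units (adjusted p = 3.4e-09). Its U0126 arrays were above, and its FGF arrays below, all quiescent arrays. The signals of Gadd45b were 1461 and 1482 with U0126, 407 and 456 with FGF alone and 622, 690 and 578 in quiescent cells. On the log2 scale the groups differed by 1.74 ± 0.13 (adjusted p = 7.5e-08). Trp53inp1, a p53-induced growth suppressor, had 1831 and 1607 with U0126, against 703 and 657 with FGF alone and 2756, 2490 and 2636 in quiescent cells, and with U0126 it was still below all quiescent arrays (1.32 ± 0.14). Tob1 (0.84 ± 0.13) and Btg2 (0.91 ± 0.15), both of the BTG and TOB family that slows entry into S phase, were called with the block and not without it. Klf4, which induces p21, was higher (0.71 ± 0.14), but lost its call without a variance trend, with the probe set of highest variance and without U0126 replicate 1. Ccng2, a cyclin of quiescent cells, had 990 and 765 with U0126, against 906 and 900 with FGF alone and 3023, 3131 and 2471 in quiescent cells and did not pass (-0.05 ± 0.22, adjusted p = 0.92). Of 17 FOXO factors and targets 2 were lower and none higher, and 1 and none without the block.

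The orphan nuclear receptors of the NR4A group, a class of immediate early genes, were higher with U0126. Nr4a1 had signals of 3638 and 4630 with U0126, against 935 and 1088 with FGF alone and 271, 428 and 658 in quiescent cells. U0126 and FGF arrays differed by 2.01 ± 0.22 in log2 units (adjusted p = 4.2e-06). Nr4a2 gave 1063 and 668 signal units with U0126, against 315 and 294 with FGF alone and 186, 122 and 132 in quiescent cells. For Nr4a2 the log2 difference was 1.43 ± 0.19 (adjusted p = 3.3e-05). The signals of Nr4a3 were 2096 and 3266 with U0126, 121 and 430 with FGF alone and 135, 10.4 and 81.8 in quiescent cells. The estimate for Nr4a3 was 3.43 ± 0.46 in log2 units (adjusted p = 4.4e-05). In a fit of all probe sets 2 of 6 for Nr4a2 and 1 of 2 for Nr4a3 were called higher and none lower. In all 3 genes the U0126 arrays were above every FGF and quiescent array. At 1 h, with 1 array in each group and so no test, Nr4a1 had 4460 with U0126, against 17925 with FGF alone. Nr4a2 had 867 with U0126, against 3983, and Nr4a3 had 547 with U0126, against 3685. The U0126 array was thus the lower one for all 3 genes at 1 h, while both U0126 arrays were the higher ones at 4 h.

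Several other regulators rose. Mef2c, a factor of muscle and mesenchymal differentiation, had signals of 2149 and 1866 with U0126, against 222 and 132 with FGF alone and 318, 394 and 209 in quiescent cells. The log2 difference was 3.45 ± 0.20 (adjusted p = 3.4e-09). Nfil3, a bZIP repressor of the clock network, gave 3949 and 2877 signal units with U0126, against 642 and 399 with FGF alone and 349, 359 and 422 in quiescent cells. It was higher in both experiments, with a log2 difference of 2.70 ± 0.20 (adjusted p = 6.9e-08). The U0126 arrays of both were above all FGF and quiescent arrays. Dbp (2.13 ± 0.27) and Hlf (1.87 ± 0.22), PAR-bZIP activators under clock control, were also higher. Of 16 clock genes 4 rose and none fell (3 and none without the block), against 6.94% and 6.03% of all genes. Dbp had 1034 and 1046 with U0126, against 261 and 196 with FGF alone and 1812, 2486 and 1430 in quiescent cells, so that its U0126 arrays lay between the others. Npas4, a factor best known from active neurons, had 202 and 182 with U0126, against 4.9 and 15.4 with FGF alone and 15.5, 3.9 and 2.4 in quiescent cells, and its FGF and quiescent signals were below 45.2 (3.15 ± 0.45). Lpar4, a lysophosphatidic acid receptor, rose (2.81 ± 0.21), as did H1f2, a linker histone (2.61 ± 0.27), Paqr3, a Golgi protein that tethers RAF (2.50 ± 0.20), and Vegfa, the angiogenic ligand (1.16 ± 0.17). Edn1, endothelin 1, had 96.8 and 96.4 with U0126, against 10.8 and 4.7 with FGF alone and 108, 207 and 258 in quiescent cells, with U0126 below all quiescent arrays and with FGF alone lower still. Its FGF signals were under 45.2, and its log2 difference of 2.38 ± 0.39 ran between 1.42 and 3.57 over the other settings. Hbb-bh1, an embryonic globin, had 243 and 260 with U0126, against 27.3 and 25.9 with FGF alone, the FGF values being under 45.2 (2.72 ± 0.27).

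Of 16 RAS, RAF, MEK and ERK genes 1 was lower, Mknk2, a kinase activated by ERK, and none was higher. Mknk2 lost its call with the probe set of highest variance and without FGF replicate 1. Of 14 glucose uptake and glycolysis genes 1 was higher, and of 20 cholesterol synthesis genes 1 was lower and 4 were higher, and none and 2 without the block. Of 38 ribosome biogenesis genes 10 were lower and none higher, with a median of -0.23, while 34 of the 38 were higher with FGF alone at 4 h than in quiescent cells, against 7.12% of all genes. Fbl, the fibrillarin of nucleoli, had 3757 and 4307 with U0126, against 5508 and 6719 with FGF alone and 2810, 2991 and 3077 in quiescent cells, so both groups exceeded the quiescent arrays (-0.60 ± 0.11). Without the block 2 of these genes were lower, and with 1 array left out 1 to 4. Of 12 BCL2 family genes 3 were lower and 3 higher, and 3 and 1 without the block. Bcl2l11, the death-promoting protein BIM, was lower, with 2048 and 2058 with U0126, against 4460 and 5430 with FGF alone and 4120, 4072 and 5205 in quiescent cells (-1.26 ± 0.15), and Pmaip1, the related NOXA, was higher (1.68 ± 0.25). Among 16 interferon response genes 2 rose, Ifit3 (1.38 ± 0.18) and Ifit2 (0.71 ± 0.12), and among 10 reference genes 2 were lower, where 6.94% of all genes were higher and 6.03% lower.

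**Figure D3:**
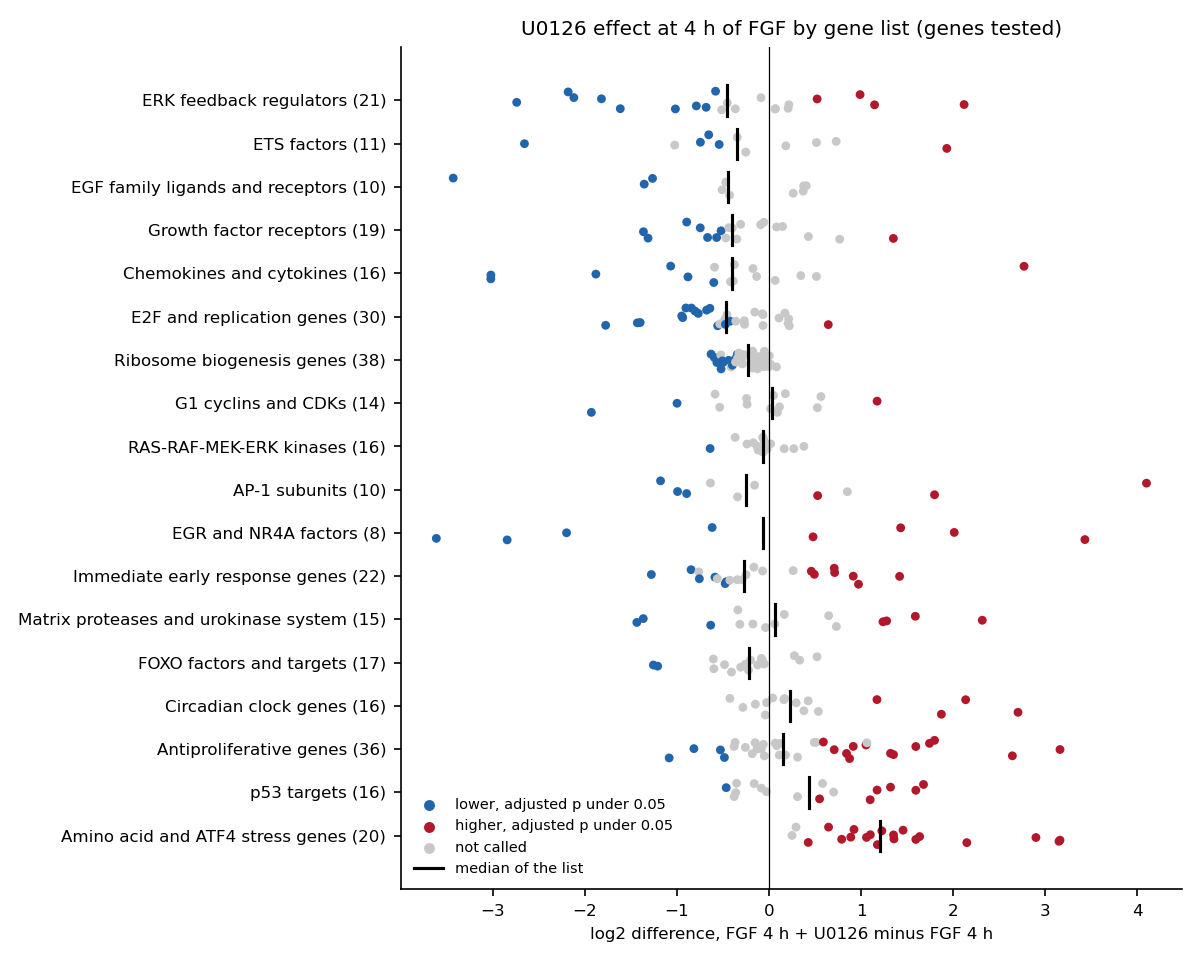
Difference between FGF 4 h + U0126 and FGF 4 h (log2, horizontal axis) for each tested gene of 18 lists, with the number tested in brackets. Blue points were lower and red points higher at an adjusted p under 0.05, grey points were not called, and the black bar is the median of the list, which is 1.20 for the stress genes and -0.45 for ERK feedback regulators.

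The effect of U0126 was set beside the response to FGF, using genes chosen at 7 h so that no 4 h array took part in the choice. Of 1373 genes (9.16% of those tested) higher at 7 h of FGF than in quiescent cells, 416 (30.3%) were lower with U0126 at 4 h and 53 (3.86%) were higher. Their median effect was -0.25 (-0.26 in experiment 1 and -0.25 in experiment 2). Of 1868 genes (12.5% of those tested) lower at 7 h of FGF than in quiescent cells, 477 (25.5%) were higher with U0126 at 4 h and 68 (3.64%) lower, with a median of 0.23. Genes raised more than 2-fold by FGF (286) had a median effect of -0.53, and 137 of them (47.9%) were lower. Genes lowered more than 2-fold (467) had a median effect of 0.43, and 148 of them (31.7%) were higher. Among 11755 genes without a call at 7 h 420 (3.57%) were lower and 510 (4.34%) higher with U0126, which makes 46.5% of all lowered and 49% of all raised genes. One estimate of the spread per gene served every comparison, so these counts are not independent of the choice.

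**Figure D4:**
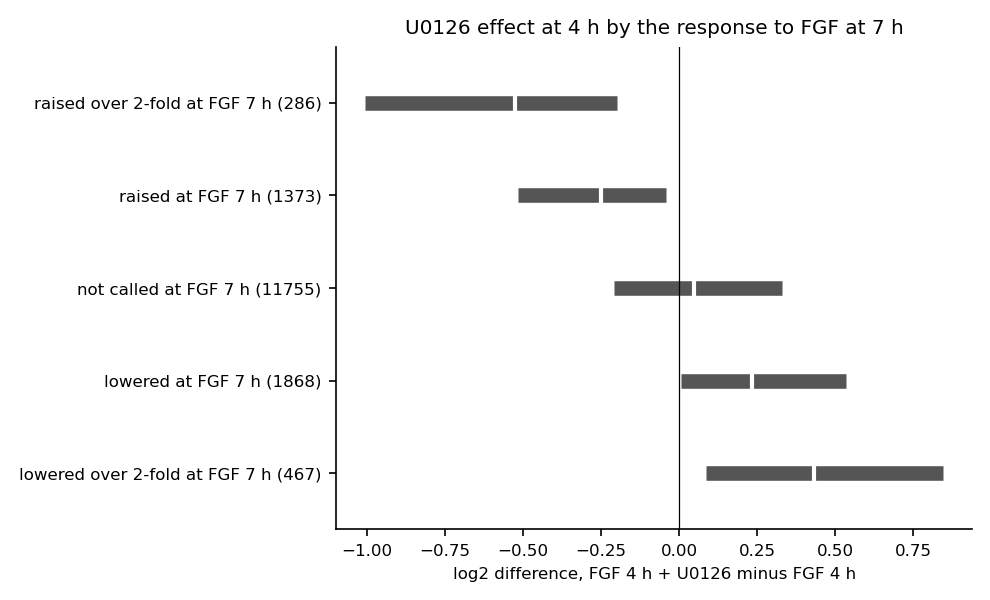
U0126 effect at 4 h (log2, horizontal axis) in genes grouped by their response to FGF at 7 h against quiescent cells. Bars span the 25th to 75th percentile over genes and the white mark is the median, which is -0.53 for the 286 genes raised over 2-fold and 0.43 for the 467 lowered over 2-fold.

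The signals with U0126 were also compared with the 3 quiescent arrays, which were not part of the contrast. Among the 904 lowered genes both U0126 arrays were below all quiescent arrays in 462 (51.1%), above them in 78 (8.63%) and overlapped them in 364 (40.3%). Over all genes tested the shares were 19.6% below, 15.9% above and 64.5% overlapping. Among the 1040 raised genes 507 (48.8%) were above, 97 (9.33%) below and 436 (41.9%) overlapped. Of the 20 largest increases 16 were above the quiescent arrays, and of the 20 largest decreases 11 were below them. The differences of U0126 cells and of FGF cells from quiescent cells share arrays with the difference between them and with each other, so the counts are given side by side only. In these bulk samples fewer cells carrying a transcript and less of it per cell cannot be told apart.

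The effects at 7 h and 12 h came from other arrays. Of the 904 genes lowered at 4 h, 866 had a negative difference at 7 h, as did 8125 of all 14996 genes tested. Of the 904, 521 were called lower at 7 h, where 6.29% of all genes were lower. At 12 h 754 of the 904 had a negative difference, as did 6837 of all 14996 genes tested. Of the 904, 444 were called lower at 12 h, against 9.08% of all genes, and 18 higher, against 11.6%. Of the 1040 raised genes, 979 had a positive difference at 7 h and 560 were called higher, against 6.25% of all genes. At 12 h 946 of the 1040 had a positive difference. Of the 1040, 602 were called higher at 12 h, against 11.6% of all genes, and 8 lower, against 9.08%. A test of the difference itself called 30 genes (0.2%) between 4 h and 7 h and 775 (5.17%) between 4 h and 12 h. Without the block these were 2 (0.0133%) and 268 (1.79%).

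**Figure D5:**
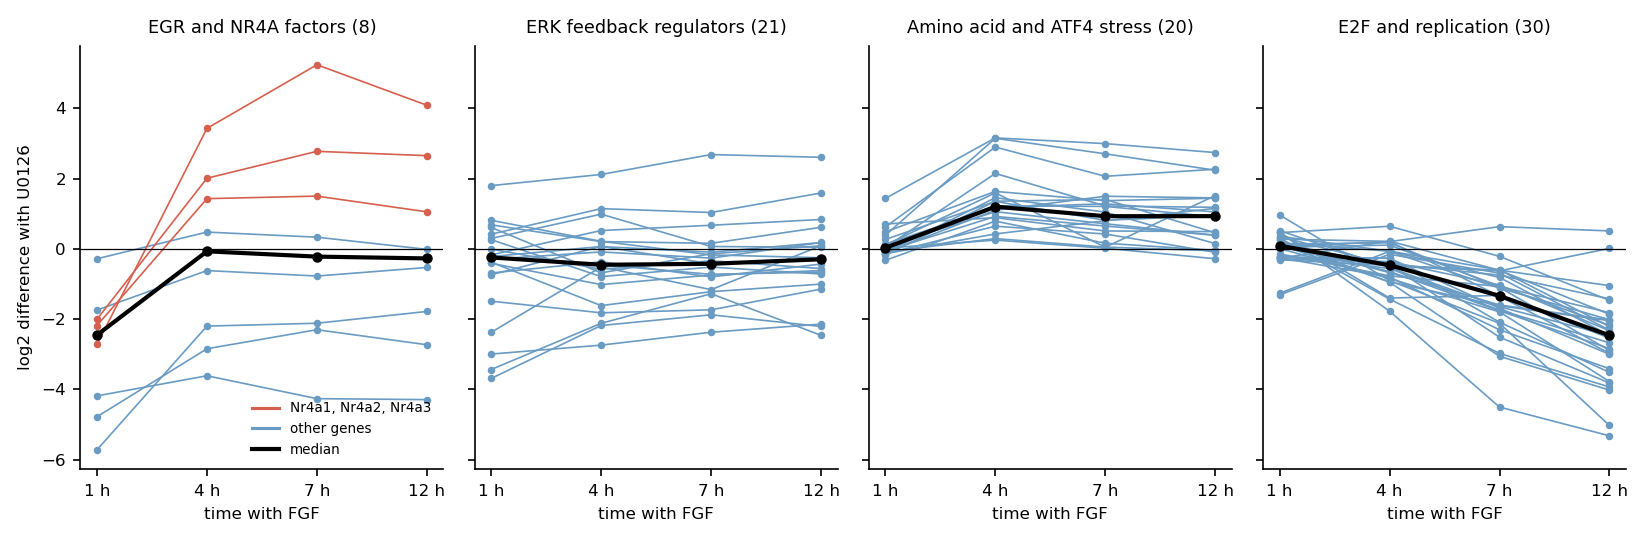
Difference between FGF with U0126 and FGF alone (log2, vertical axis) at 1, 4, 7 and 12 h of FGF, for the genes of 4 lists. Thin lines are genes, red for Nr4a1, Nr4a2 and Nr4a3, and the thick black line is the list median. The 1 h values rest on 1 array per group. The 3 NR4A genes are below 0 at 1 h and above it later, and the replication list declines to a median of -2.46 at 12 h.

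Genes of DNA replication were where the time points parted most among the lists. Of 30 E2F and replication genes 14 were lower and 1 higher at 4 h, against 6.03% and 6.94% of all genes. Their median was -0.47, and 7 were lower and none higher without the block. The median was -1.34 at 7 h and -2.46 at 12 h. Between 4 h and 7 h 9 genes differed and between 4 h and 12 h 25, against 0.2% and 5.17% of all genes. Without the block none of the 30 differed between 4 h and 7 h and 24 differed between 4 h and 12 h. The signals of Uhrf1, which maintains DNA methylation at replication, were 79.1 and 81 with U0126, 294 and 193 with FGF alone and 168, 215 and 221 in quiescent cells. This made a log2 difference of -1.43 ± 0.22, with an adjusted p of 0.00017. Its difference was -3.93 ± 0.22 at 12 h. Mcm5, a subunit of the replicative helicase, had signals of 562 and 376 with U0126, against 1096 and 740 with FGF alone and 731, 983 and 536 in quiescent cells. Mcm5 differed by -0.95 ± 0.16 in log2 units (adjusted p = 0.00048). Mcm5 lost its 4 h call without the block, and its difference was -3.06 ± 0.16 at 7 h and -4.02 ± 0.16 at 12 h. Ung, the uracil DNA glycosylase, differed by -1.40 ± 0.21 at 4 h and -2.54 ± 0.21 at 12 h, a difference between times that lost its call without the block. Of 19 mitotic genes 3 were lower at 4 h (1 without the block), Cks2, a CDK-binding subunit, among the named (-0.89 ± 0.13), and 11 differed between 4 h and 12 h, 8 without the block.

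The stress list had a median of 1.20 at 4 h, 0.93 at 7 h and 0.93 at 12 h, and 8 of its 20 genes differed between 4 h and 12 h and none between 4 h and 7 h. Without the block 1 of them differed between 4 h and 12 h. Psph differed by 1.45 ± 0.16 at 4 h and 0.15 ± 0.16 at 12 h. Mthfd2, outside that list, differed by 1.77 ± 0.18 and 0.05 ± 0.18. Ddit3 (2.74 ± 0.17 at 12 h) and Trib3 (2.24 ± 0.20) were not called different between 4 h and 12 h (adjusted p = 0.39 and 0.076). ERK feedback regulators gave no call between 4 h and 7 h and 1 between 4 h and 12 h, Dusp14, whose differences were 0.99 ± 0.14 at 4 h and 0.05 ± 0.14 at 12 h and which lost this call without the block.

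Of the genes with the smallest p-values for a lower effect at 4 h than at another time, Myzap stood among those for 7 h, and Itgb3, Tgfb3 and Ccn5 among those for 12 h. Myzap, a myocardial junction protein, gave 166 and 140 signal units with U0126, against 774 and 642 with FGF alone and 281, 201 and 225 in quiescent cells. On the log2 scale the groups differed by -2.11 ± 0.20 (adjusted p = 9.6e-07). Its difference was 0.14 ± 0.20 at 7 h and 0.29 ± 0.20 at 12 h. Itgb3, integrin beta 3, had 118 and 168 with U0126, against 604 and 782 with FGF alone and 209, 308 and 456 in quiescent cells at 4 h (-2.18 ± 0.20) and a difference of 0.21 ± 0.20 at 12 h. Tgfb3, a TGF-beta ligand, was lower at 4 h (-0.69 ± 0.13) and differed by 1.48 ± 0.13 at 12 h. Ccn5, a matricellular protein, was higher at 4 h (1.03 ± 0.17), with a difference of 3.40 ± 0.17 at 12 h.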

How the data were processed

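Gene expression was measured on 19 one-colour Affymetrix arrays of NIH3T3 cells. The authors deposited 1 intensity per probe set and array, a MAS5 signal per the submitters' processing notes, and the deposited intensity values had the same 2% trimmed mean of 500 on each array. The probe annotation gave 1 gene for 34945 of 45101 probe sets, several genes for 932 and none for 9160. An offset of 13.6 (the 20th percentile of the deposited signals) was added before log2 was taken. Probe sets above the 40th percentile of the same array on at least 2 arrays were kept, with the probe set of highest mean for each gene. The 2 quiescent arrays of experiment 1 were averaged. One limma 3.58.1 model (R 4.3.3) with a variance trend was fitted to 18 columns in 11 groups, with 6 residual degrees of freedom and the experiment number as a block, and p-values were Benjamini-Hochberg adjusted over all 14996 genes. The code was tested on simulated data. The experiment numbers come from the array titles, and over 21 pairs of groups arrays of the same number deviated together, with correlations of 0.127 to 0.305. The number of arrays limits the precision.

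Named genes were the 20 largest changes each way among genes called with and without the block, up to 6 called members per list, 18 fixed genes and the genes whose effect differed most between times (8 each way). Of 667 members of 36 gene lists 618 matched a gene on the arrays, and list counts cover those that passed the filter. The members, gene lists and tests were chosen with earlier results of these data known. Alternatives to the block, scaling, offset, filter, variance trend, arrays fitted, probe set and replicates were tried. Promoters came from RefSeq (GRCm38.p6).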

Additional observations from a re-analysis of the deposited data

Results flagged for a closer look

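The effect of U0126 at 4 h differed from that at another time, by limma's test of the difference at an adjusted p under 0.05, in 30 genes for 7 h and 775 for 12 h. The differences below are the effect at 4 h minus the other effect, in log2 units. For the NR4A receptors the U0126 array was lower at 1 h and both were higher at 4 h. The differences, Nr4a1 (4.01), Nr4a2 (3.61) and Nr4a3 (6.15), were not tested, since 1 h has 1 array per group.

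Against 7 h, Ccl2, a monocyte chemokine, Mcm5 and Uhrf1 of DNA replication and Myzap differed, with values of Ccl2 (1.80), Mcm5 (2.11), Myzap (-2.25) and Uhrf1 (1.55). Without the replicate block Ccl2, Mcm5 and Uhrf1 lost this call.

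Against 12 h, the genes whose effect at 4 h was the higher value were Adamts1 (1.18), Ccl2 (2.002), Ccl7 (1.46), Ccne1 (2.50), Cks2 (0.95), Cth (0.96), Dusp14 (0.94), Mcm5 (3.07), Mthfd2 (1.72), Psat1 (0.53), Psph (1.31), Shmt2 (1.14), Slc7a1 (0.83), Slc7a5 (0.90), Uhrf1 (2.50) and Ung (1.14). The genes whose effect at 4 h was the lower value were Ccn5 (-2.37), Frmd4a (-0.71), Itgb3 (-2.39), Myzap (-2.41), P2ry2 (-2.05), Pdzd2 (-1.36), Synpo (-1.86), Tgfb3 (-2.17) and Tnfaip8 (-1.40). Without the replicate block 16 of these 25 kept the call, and Ccl7, Cks2, Cth, Dusp14, Frmd4a, Psat1, Slc7a1, Slc7a5 and Ung lost it.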

How the results depend on the processing

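Of 172 named genes called, 98 kept their call and direction under all 17 alternatives. The directions that turned came with the probe set of highest variance, for Irf2bpl (0.68), Spred1 (0.68) and Spred2 (0.41), none of them called there, and the cause was not tested. In the fit of all probe sets 1 of 2 was called for Egr3, Sema7a, Jund and Synpo and 2 of 4 for Pdzd2. All were called for Hmga2 (4 of 4), Etv5 (3 of 3) and Mef2c (5 of 5). None of these genes had a probe set called the opposite way. Without the replicate block 47 named genes lost their call, 409 genes were lower and 480 higher, 2 differed between 4 h and 7 h and 268 between 4 h and 12 h, and the median effect was -0.33 in FGF-raised and 0.31 in FGF-lowered genes. Without a variance trend these values were 538, 650, 1, 325, -0.31 and 0.29. With only the 4 arrays at 4 h 1528 genes were lower and 1728 higher. That fit had 1 residual degree of freedom, so its counts lean on the spread pooled over genes and are not stronger evidence. With the probe set of highest variance 607 genes were lower and 675 higher, 18 and 516 differed between times, and the medians were -0.32 and 0.29. With the 3 quiescent arrays kept separate 780 genes were lower and 881 higher, and 21 and 621 differed between times. With all 27915 probe sets fitted, 1477 probe sets were lower and 1508 higher, and the median over FGF-raised probe sets was -0.27. These are counts of probe sets and not of genes. The FGF-raised median was -0.24 after quantile normalization. The FGF-lowered median was 0.26 with 75th percentile scaling, 0.22 with the offset at the 40th percentile, 0.24 without a filter and 0.22 with the filter at the median. Leaving out 1 array gave 483 to 582 lower and 547 to 656 higher genes, 9 to 31 differing between 4 h and 7 h, 486 to 604 between 4 h and 12 h, and medians of -0.30 to -0.24 and 0.22 to 0.29. The 9 came without U0126 replicate 1, and 13 without FGF replicate 2. The lone array left in a group was assumed to vary like the others. Signals near background limit the sizes of dim genes.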

Other observations

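Genes of TGF-beta and prostaglandin signalling also differed between FGF with U0126 and FGF alone at 4 h. Of 18 TGF-beta, BMP and ID genes 6 were lower and 2 higher (4 and 1 without the block), against 6.03% and 6.94% of all genes. Id1, an inhibitor of differentiation that BMP signals induce, differed by -0.93 ± 0.18, and Ltbp2, a microfibril-associated matrix protein, by -1.09 ± 0.19. Of 6 prostaglandin genes 2 were lower, among them Ptger4, a prostaglandin E2 receptor (-0.66 ± 0.11). Without U0126 replicate 1 or FGF replicate 1 the other, Ptges, lost its call and 1 was lower. Of 16 p53 targets 6 were higher and 1 lower, with a median of 0.43 (4 and none without the block), and Cdkn1a, Pmaip1 and Trp53inp1 were among the higher ones.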
